A study of Mus musculus with 17 samples.

Results

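Expression of the DNA replication machinery and of nucleotide synthesis was followed through 33 genes, listed by symbol, out of 27771 genes tested on single-colour Agilent mouse arrays. They comprised 9 genes of origin licensing (Mcm2 to Mcm7, Cdc6, Cdt1 and Gmnn), 4 of helicase activation (Mcm10, Gins1, Gins2 and Gins3) and 10 of the polymerases and the fork (Pola1, Prim1, Pold1, Pole, Pcna, Rfc3, Rfc4, Rfc5, Fen1 and Lig1). The other members were 4 genes of nucleotide synthesis (Rrm1, Rrm2, Tyms and Tk1) and 6 of chromatin assembly and DNA methylation (Uhrf1, Dnmt1, Hells, Chaf1a, Chaf1b and Slbp). Each gene was represented by its brightest probe. The RNA came from sorted intestinal stem cells of mice that all carried the LGR5-GFPki reporter, in which green fluorescence follows Lgr5. The groups were LGR5hi cells of mice given 12 Gy of gamma-irradiation (n = 4), LGR5hi cells of non-irradiated mice (n = 4), LGR5lo cells of mice given 12 Gy (n = 4) and LGR5lo cells of non-irradiated mice (n = 5). Irradiated cells were sorted 3 h after the dose, and each group held 2 female arrays, the others being male. The age of the mice is not given in the sources used here. The labels do not say that replicates were separate animals, so p-values measure the spread between these samples.

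Before S phase, CDC6 and CDT1 load the MCM helicase ring onto replication origins, a step called licensing, and geminin, the product of Gmnn, blocks CDT1 once replication has begun. The GINS complex and MCM10 then turn the loaded ring into a moving helicase. DNA polymerases copy the strands behind it, PCNA clamps them to the DNA, and FEN1 and LIG1 join the fragments of the lagging strand. Ribonucleotide reductase, thymidylate synthase and thymidine kinase supply deoxynucleotides. Many of these genes are transcribed at the start of S phase under E2F factors. At the crypt base, Lgr5-positive stem cells divide continuously, so these genes are normally active there.

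Values are log2 signal minus the 75th percentile of the array, and a difference of 1 is a doubling. Lgr5, the receptor that defines the sort, was 2.89 ± 0.29 log2 higher in LGR5hi than in LGR5lo cells after irradiation and 3.14 ± 0.28 higher without it (standard error of the fit, as for all differences here). The irradiation was visible in Cdkn1a, the cell cycle inhibitor induced by p53, which rose by 4.91 ± 0.31 in LGR5hi and 2.90 ± 0.30 in LGR5lo cells. Lgr5 itself fell by 1.53 in LGR5hi and by 1.27 in LGR5lo cells. On 16 arrays with spot flags, the 75th percentile signal lay between 322.8 and 702.1 intensity units. Of these, 15 had 58.9% to 73.9% of their spots well above background, whereas non-irradiated LGR5lo replicate 2 had 95.6%. Non-irradiated LGR5lo replicate 4 has no spike-in slope above 0, and 5 members lay over 1 log2 below the rest of the group there. Results that rest on these 2 arrays are therefore also given without them, a step chosen after the data had been seen.

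All 33 members were well above background on all 16 arrays with flags. Their mean levels lay between the 53.3 and the 95.9 percentile of all genes tested, with a median at 87.3, and 10 members were in the top 10%. The median over the members was 3.51, 3.69, 3.62 and 3.17 on the irradiated LGR5hi arrays, against 4.31, 4.22, 3.94 and 3.99 on the non-irradiated LGR5hi arrays. It was 3.30, 3.33, 3.43 and 3.24 on the irradiated LGR5lo arrays, against 4.01, 3.42, 3.71, 2.91 and 3.31 on the non-irradiated LGR5lo arrays. The irradiated LGR5hi arrays were all below the non-irradiated ones, while in LGR5lo cells the groups overlapped. Among the non-irradiated LGR5lo arrays the highest 2 medians were those of the female replicates 1 and 3. The male arrays of that group include replicates 2 and 4, the 2 arrays named above. In each other group the highest 2 medians were those of 1 female and 1 male array.

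**Figure D1:**
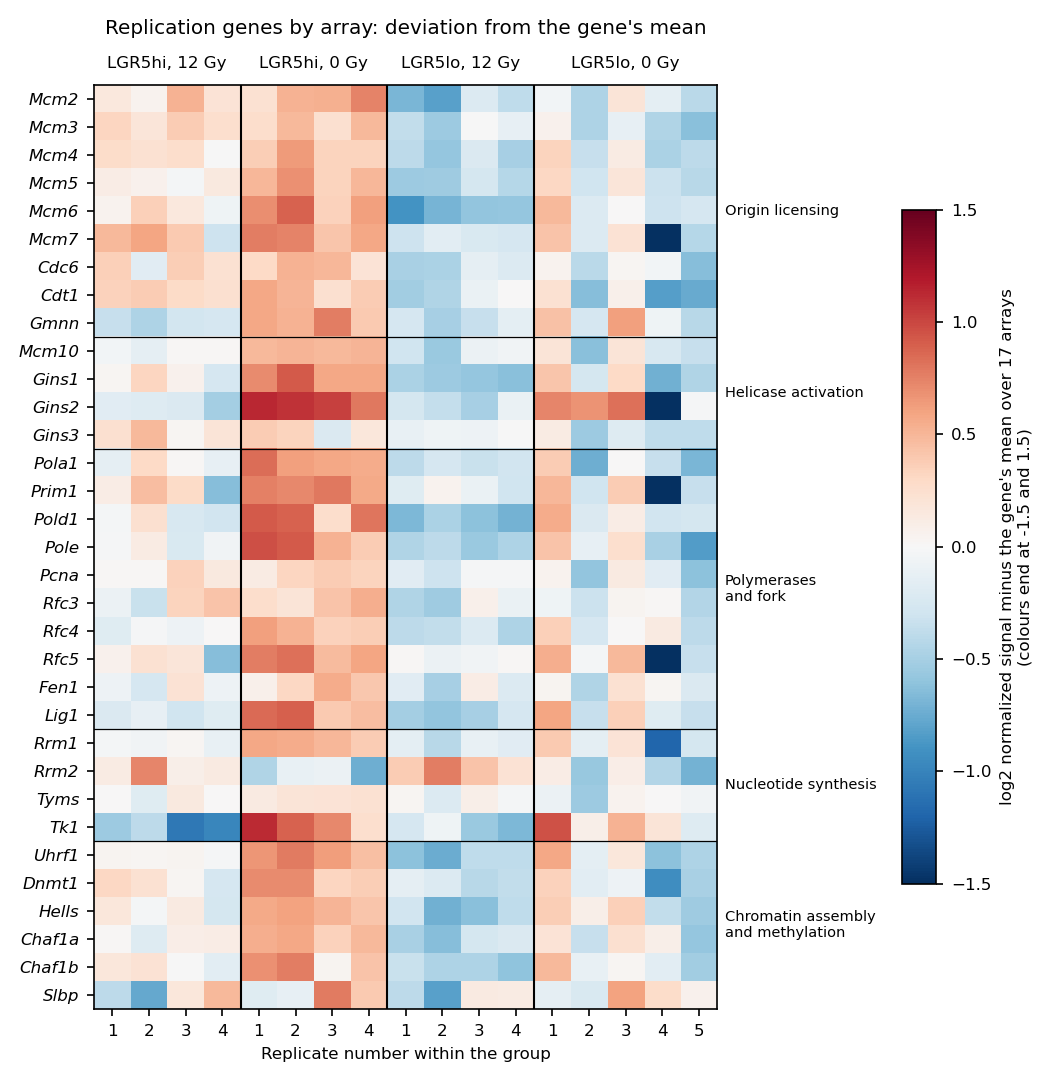
Each row is one of the 33 members and each column one of the 17 arrays, grouped as irradiated and non-irradiated LGR5hi and LGR5lo cells. Colour is the log2 normalized signal minus that gene's mean over the arrays, and most genes are reddest in non-irradiated LGR5hi cells, with 5 dark blue cells on non-irradiated LGR5lo replicate 4.

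The first comparison asks how 12 Gy changed these genes in LGR5hi cells within 3 h. Of the 33 members, 6 fell and 0 rose (limma, Benjamini-Hochberg adjusted p under 0.05 over all genes), while 7.28% of all genes fell and 6.18% rose. Tk1, the salvage thymidine kinase, fell most, 2.81-fold, followed by Gmnn at 1.87-fold, Lig1 at 1.81-fold and Pold1 at 1.74-fold. The other falls were in Rfc4, a subunit of the clamp loader, and Pole, the catalytic subunit of DNA polymerase epsilon. Differences were negative for 31 of 33 members and their median was -0.48, against -0.02 over all genes tested. For 19 members every irradiated LGR5hi array lay below every non-irradiated one, which held for 13% of all genes. In these bulk samples, fewer replicating cells and less RNA per cell cannot be told apart.

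The count of calls depended on the fit. It was 14 of 33 without non-irradiated LGR5lo replicates 2 and 4, which enter the shared estimate of the spread (11.2% of all genes then fell). Leaving out 1 array gave 3 calls without irradiated LGR5hi replicate 4 or non-irradiated LGR5hi replicate 1. It gave 11 without non-irradiated LGR5lo replicate 1 or 4. The share of all genes called in these fits is not given here. Median centring called 0 members, or 5 lower once the 2 doubted arrays were left out, while it called 437 and 2287 of all genes lower. The median over the members stayed between -0.53 and -0.43 in all alternatives run, and 31 of 33 members lay below the median of all genes under the 75th percentile, quantile and median scalings.

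Of the 9 origin licensing genes, 1 fell in LGR5hi cells and the others were not called. Gmnn was 1.12, 0.997, 1.18 and 1.21 on the irradiated arrays, against 2.05, 1.98, 2.23 and 1.85 on the non-irradiated arrays. The groups were far apart, and Gmnn fell by 0.90 ± 0.20 (limma, adjusted p = 0.0059), although the call was lost when its probes were averaged, under median centring and within either slide alone. The probe is for NM_020567, at mm9 chromosome 13, 24843715 to 24843774. Mcm6, a subunit of the MCM ring, was 5.79, 6.10, 5.90 and 5.68 on the irradiated arrays, against 6.44, 6.63, 6.09 and 6.36 on the non-irradiated arrays. The groups overlapped slightly, and the difference of -0.51 ± 0.18 missed the threshold (limma, adjusted p = 0.078). The other MCM ring genes had differences from -0.43 ± 0.17 in Mcm5 to -0.08 ± 0.17 in Mcm3, none of them called. Of these, Mcm4 and Mcm5 had groups that did not overlap. The loaders Cdc6 (-0.18 ± 0.18) and Cdt1 (-0.12 ± 0.22) had the smallest differences of the list besides Mcm3, Pcna and Gins3. A dimmer Cdc6 probe gave -0.64, so the size for this gene depends on the probe.

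Among the helicase activation genes, Mcm10 showed the tightest groups. It was 3.11, 3.02, 3.17 and 3.17 on the irradiated arrays, against 3.65, 3.67, 3.64 and 3.67 on the non-irradiated arrays of LGR5hi cells. These groups did not overlap, although the difference of -0.54 ± 0.18 was not called (limma, adjusted p = 0.057). Gins2, a GINS subunit, was 0.59, 0.56, 0.54 and 0.24 on the irradiated arrays, against 1.89, 1.84, 1.78 and 1.55 on the non-irradiated arrays. The groups were far apart, yet the difference of -1.28 ± 0.74 was not called (limma, adjusted p = 0.35). The spread estimate for Gins2 included a value of -3.18 on non-irradiated LGR5lo replicate 4. Without that array and replicate 2 the adjusted p for Gins2 was 0.00013 (limma), with the same difference. Gins1 differed by -0.66 ± 0.22 (limma, adjusted p = 0.062), and Gins3 by 0.07 ± 0.17.

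All 10 polymerase and fork genes had negative differences in LGR5hi cells, and 4 of them fell. Lig1, the ligase that seals lagging-strand fragments, was 3.97, 4.07, 3.89 and 4.01 on the irradiated arrays, against 5.04, 5.09, 4.59 and 4.66 on the non-irradiated arrays. It fell by 0.86 ± 0.21 (limma, adjusted p = 0.0095), with no overlap of the groups. Pold1, the catalytic subunit of DNA polymerase delta, was 3.42, 3.69, 3.21 and 3.16 on the irradiated arrays, against 4.37, 4.34, 3.71 and 4.25 on the non-irradiated arrays. The highest irradiated value of Pold1 was just under the lowest non-irradiated one, and the gene fell by 0.80 ± 0.20 (limma, adjusted p = 0.015). This call was lost without irradiated LGR5hi replicate 4 or non-irradiated LGR5hi replicate 1.

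Pole was 2.72, 2.86, 2.51 and 2.69 on the irradiated LGR5hi arrays, against 3.70, 3.66, 3.26 and 3.12 on the non-irradiated arrays. It fell by 0.74 ± 0.23 (limma, adjusted p = 0.047), a call that was lost when any 1 of 11 arrays was left out. Rfc4 fell by 0.53 ± 0.16 (limma, adjusted p = 0.033), and its call was lost without any 1 of the irradiated LGR5hi arrays or of the non-irradiated LGR5hi replicates 1, 2 and 4. The primase and polymerase alpha genes Prim1 (-0.65 ± 0.51) and Pola1 (-0.63 ± 0.21) had no overlap between the groups, but neither was called. The clamp gene Pcna differed by only -0.16 ± 0.18 and the flap nuclease gene Fen1 by -0.38 ± 0.18. For Rfc5 the tested probe gave -0.70 ± 0.56 and a dimmer probe 0.17, so the 2 probes disagree in sign.

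Of the 4 nucleotide synthesis genes, 1 fell in LGR5hi cells, and the others were not called. Tk1 was 2.97, 3.13, 2.45 and 2.54 on the irradiated LGR5hi arrays, against 4.63, 4.41, 4.24 and 3.78 on the non-irradiated arrays. Every irradiated value was below every non-irradiated one, and Tk1 fell by 1.49 ± 0.26 (limma, adjusted p = 0.00078). Its probe for NM_009387 lies at mm9 chromosome 11, 117676845 to 117676904, and further probes gave -1.65 and, at a much dimmer signal, -0.16. Rrm2, the regulatory subunit of ribonucleotide reductase whose level limits the enzyme through the cell cycle, was 3.70, 4.31, 3.66 and 3.71 on the irradiated arrays, against 3.12, 3.46, 3.48 and 2.83 on the non-irradiated arrays. It was the only member with every irradiated LGR5hi value above every non-irradiated one, a pattern of 10.8% of all genes. The difference of 0.62 ± 0.23 was not called (limma, adjusted p = 0.095). Rrm1, the catalytic subunit of the same enzyme, had the opposite sign (-0.54 ± 0.25), also without overlap of the groups and without a call. Tyms, thymidylate synthase, differed by -0.20 ± 0.14.

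The 6 chromatin genes all had negative differences in LGR5hi cells, from -0.61 ± 0.21 in Uhrf1, which recruits the maintenance DNA methyltransferase, to -0.34 ± 0.31 in Slbp, which binds histone mRNA. None was called, although Uhrf1, Dnmt1, Hells and Chaf1a had groups that did not overlap. Uhrf1 was 4.16, 4.15, 4.16 and 4.10 on the irradiated arrays, against 4.78, 4.90, 4.75 and 4.57 on the non-irradiated arrays. The irradiated values of Uhrf1 were almost equal to each other. Slbp was 0.23, -0.14, 0.80 and 1.11 on the irradiated arrays, against 0.44, 0.51, 1.40 and 1.02 on the non-irradiated arrays. In both groups the higher values of Slbp were those of replicates 3 and 4, which share a slide.

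**Figure D2:**
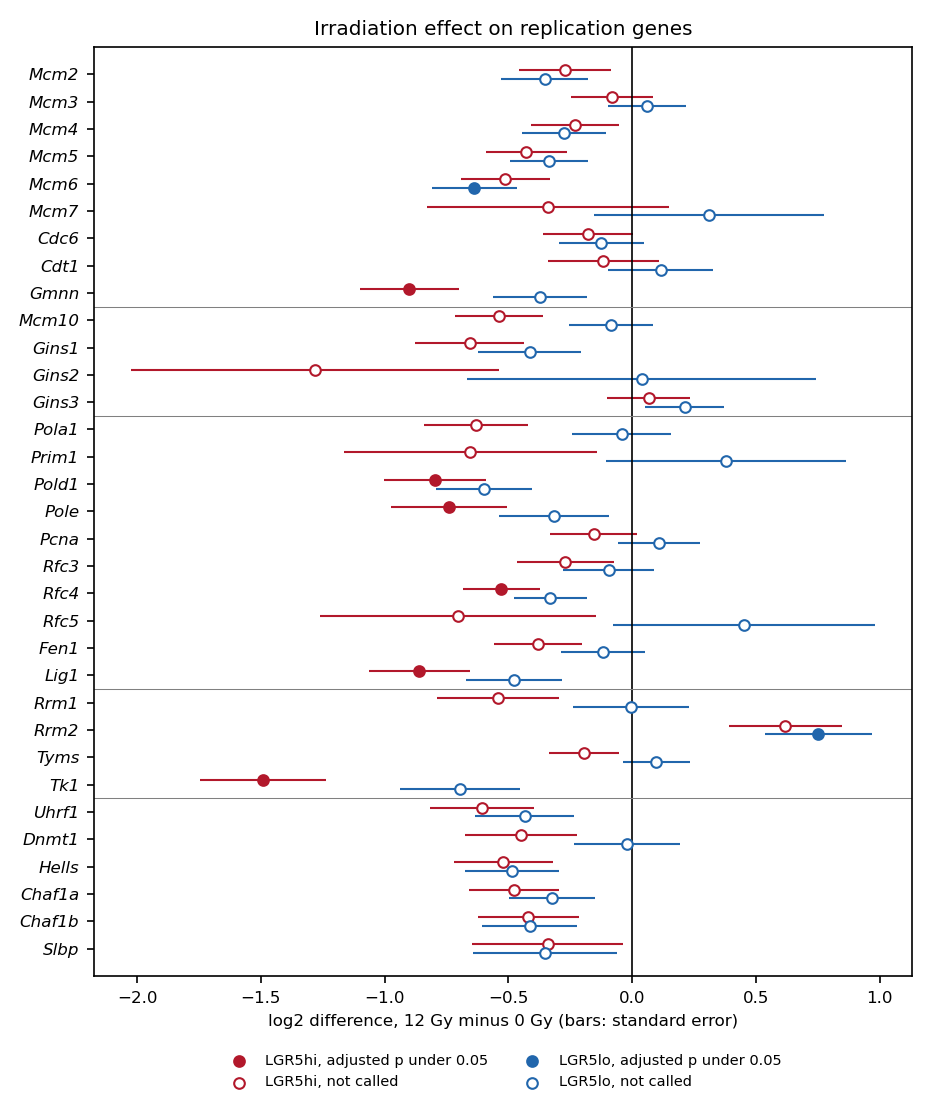
Each point is the log2 difference, 12 Gy minus 0 Gy, of one member in LGR5hi (red) or LGR5lo cells (blue), with its standard error as a bar, and filled points have an adjusted p under 0.05. In LGR5hi cells 31 of 33 points lie left of 0, while Rrm2 lies right of 0 in both populations.

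The second comparison asks the same question in LGR5lo cells. Of the 33 members, 1 rose (Rrm2, 1.68-fold) and 1 fell (Mcm6, 1.56-fold), while 4.47% of all genes rose and 3.02% fell. A count of 1 of 33 is near these shares, so the number of calls does not set the members apart from all genes. The median over the members was -0.13, against -0.13 over all genes tested, and 23 of 33 differences were negative. Without non-irradiated replicates 2 and 4 the median over the members was -0.35, against -0.09 over all genes, with 29 of 33 negative. In that fit 3 members were called, all lower, while 3.27% of all genes fell. Under quantile normalization the median over the members was -0.30, against 0.07 over all genes. The shift of the members relative to all genes thus depended on these arrays and on the scaling. Rrm2 was the only member whose irradiated LGR5lo values all lay above the non-irradiated ones, as 5.95% of all genes did. Mcm6 and Pold1 were the members whose irradiated values all lay below, as 4.86% of all genes did. Leaving out 1 array left 0 calls without any 1 of the 4 irradiated LGR5lo arrays. Quantile normalization called 0 members higher and 6 lower (Mcm5, Mcm6, Pold1, Rfc4, Lig1 and Tk1), and median centring called none and moved the median over the members to 0.41. Over all genes quantile normalization called 1273 higher and 936 lower, and median centring 916 and 74. Under median centring the median of all genes moved too, to 0.40.

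Rrm2 was 3.95, 4.34, 3.996 and 3.79 on the irradiated LGR5lo arrays, against 3.69, 3.00, 3.67, 3.13 and 2.86 on the non-irradiated arrays. It rose by 0.75 ± 0.22 (limma, adjusted p = 0.047), and without non-irradiated LGR5lo replicates 2 and 4 the difference was 0.62 (limma, adjusted p = 0.15). The probe is for NM_009104, at mm9 chromosome 12, 25398824 to 25398883. Leaving out 1 array lost the call of Rrm2 in 13 of 17 fits, with values from 0.64 to 0.86.

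Mcm6 was 4.85, 5.04, 5.14 and 5.16 on the irradiated LGR5lo arrays, against 6.23, 5.54, 5.75, 5.43 and 5.49 on the non-irradiated arrays. It fell by 0.64 ± 0.17 (limma, adjusted p = 0.033), and by 0.77 without the 2 arrays named above (limma, adjusted p = 0.018). Its probe is for NM_008567, at mm9 chromosome 1, 130228178 to 130228237. The call of Mcm6 was lost without any 1 of the irradiated LGR5lo arrays or of the non-irradiated LGR5lo replicates 1 and 3. Pold1 was 2.77, 2.97, 2.84 and 2.74 on the irradiated LGR5lo arrays, against 4.01, 3.23, 3.56, 3.16 and 3.19 on the non-irradiated arrays. Its difference of -0.60 ± 0.19 was not called (limma, adjusted p = 0.077) until the 2 arrays were left out (-0.75, limma, adjusted p = 0.040).

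Tk1 in LGR5lo cells was 3.27, 3.45, 2.97 and 2.85 on the irradiated arrays, against 4.48, 3.61, 4.04, 3.71 and 3.32 on the non-irradiated arrays. The groups overlapped, and the difference was -0.70 ± 0.24 (limma, adjusted p = 0.099). Gmnn was 1.21, 0.96, 1.12 and 1.32 on the irradiated arrays, against 1.91, 1.21, 2.08, 1.39 and 1.05 on the non-irradiated arrays, a difference of -0.37 ± 0.19. For both genes the female non-irradiated replicates 1 and 3 were the highest of their group, whose male arrays include the doubted replicates 2 and 4. Among the irradiated LGR5lo arrays the highest and the lowest value of both genes were those of the female replicates 2 and 4. With sex as a covariate 7 members were called in LGR5hi and 2 in LGR5lo cells. The share of all genes called in that fit is not given here, so these counts cannot be set against it.

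The genes Mcm7, Gins2, Prim1 and Rfc5 had positive differences in LGR5lo cells, between 0.04 and 0.45, that rested on non-irradiated replicate 4. Without replicates 2 and 4 their differences were -0.31, -0.82, -0.31 and -0.26, and Gins2 was called (limma, adjusted p = 0.017). The 6 chromatin genes were negative in LGR5lo cells as well, from -0.48 ± 0.19 in Hells, a chromatin remodeller, to -0.02 ± 0.21 in Dnmt1.

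**Figure D3:**
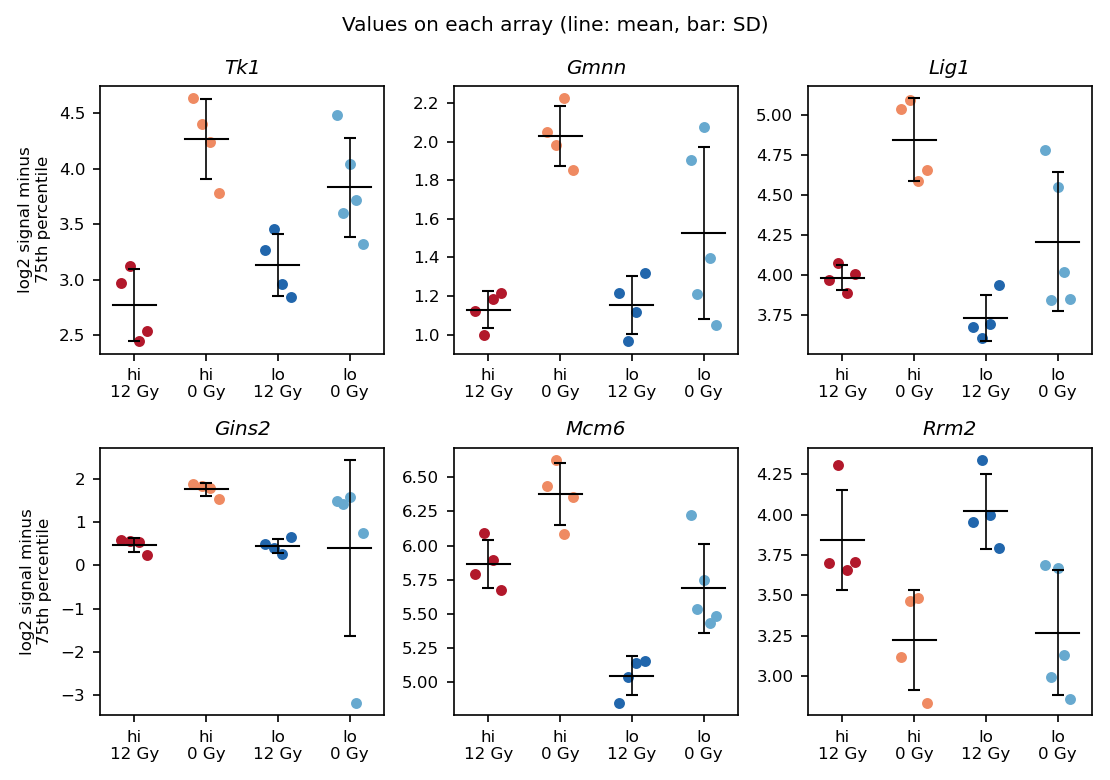
Points are single arrays, with the group mean as a line and the SD as a bar, for 6 members in LGR5hi and LGR5lo cells with 12 Gy or 0 Gy. Tk1, Gmnn, Lig1 and Gins2 are lower on every irradiated than on every non-irradiated LGR5hi array, and the non-irradiated LGR5lo value of Gins2 at -3.18 stands far from the other 4.

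The third comparison asks whether irradiation acted differently in the 2 populations, as the difference between the effect in LGR5hi and that in LGR5lo cells. It was called for 0 of 33 members (limma, 0.0396% of all genes) and 1 member had an unadjusted p under 0.05. That member was Tk1, whose difference of effects was -0.80 ± 0.35 (limma, adjusted p = 0.72). Differences were negative for 29 of 33 members, with a median of -0.23 against 0.06 over all genes, and 31 members lay below that median of all genes. The relative direction turned under quantile normalization, where the median over the members was -0.06 against -0.09 over all genes, and 19 of 33 members lay above the median of all genes. Without the 2 doubted arrays the median over the members was -0.12, against 0.01 over all genes, and 23 of 33 differences were negative. A miss of the threshold does not show that the responses were alike.

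Further replication genes gave the context. Of 65 other genes of replication and nucleotide synthesis, 15 fell and 5 rose in LGR5hi cells, with a median of -0.33. Of all genes 7.28% fell and 6.18% rose. In LGR5lo cells 7 fell and 3 rose, with a median of -0.15, while 3.02% of all genes fell and 4.47% rose. Without the 2 doubted arrays 22 fell and 5 rose in LGR5hi cells, while 11.2% of all genes fell and 9.2% rose. In LGR5lo cells 6 then fell and 0 rose, with a median of -0.26, while 3.27% of all genes fell and 4.76% rose. Samhd1, which degrades deoxynucleotides, fell by 1.62 ± 0.18 in LGR5hi and by 0.82 ± 0.17 in LGR5lo cells. The clamp loader gene Rfc2 fell by 0.95 ± 0.14 in LGR5hi and by 0.49 ± 0.13 in LGR5lo cells. Other falls in LGR5hi cells were those of Rnaseh2b (-0.99), Dscc1 (-0.92), Pold3 (-0.75) and Dbf4 (-1.15), the activator of the CDC7 kinase that fires origins. Without the 2 doubted arrays Dscc1 (-0.86, limma, adjusted p = 0.017) and Pold3 (-0.57, limma, adjusted p = 0.015) were called lower in LGR5lo cells too. Rnaseh2b (-0.44) and Dbf4 (-0.505) were not called there.

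The genes of this list that rose in LGR5hi cells all belonged to nucleotide supply, and their number was near the share of all genes that rose. In LGR5hi cells Cad, the first enzymes of pyrimidine synthesis, rose by 1.18 ± 0.21, Mthfd1 by 0.81 ± 0.20, the mitochondrial kinase gene Tk2 by 0.72 ± 0.23 and Nme1 by 0.56 ± 0.14. Rrm2b, the p53-inducible reductase subunit, whose probe was above background on only 11 of 16 arrays, rose by 0.70 ± 0.21 in LGR5hi and by 0.71 ± 0.20 in LGR5lo cells. Ctps, CTP synthase, rose by 0.67 ± 0.17 in LGR5lo cells. Without the 2 doubted arrays Rrm2b and Ctps were no longer called in LGR5lo cells (limma, adjusted p = 0.11 and 0.071). Orc1 (-0.46 ± 0.28 in LGR5hi cells), Cdc45 (-0.27 ± 0.24) and Dut (-0.22 ± 0.16) were not called in either population.

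Of 21 regulators of the entry into S phase, 1 rose and 5 fell in LGR5hi cells, while 6.18% of all genes rose and 7.28% fell. The retinoblastoma gene Rb1, which restrains E2F factors, rose by 1.67 ± 0.25, and cyclin A2, Ccna2, fell by 1.68 ± 0.23. The repressor E2f8 fell by 1.38 ± 0.24 and the activator E2f2 by 1.11 ± 0.22. In LGR5lo cells Rb1 rose by 1.14 ± 0.23, cyclin D1, Ccnd1, rose by 2.09 ± 0.59, and Ccna2 fell by 0.84 ± 0.22. Without non-irradiated LGR5lo replicates 2 and 4 the rise of Ccnd1 was 1.27 ± 0.23 in LGR5lo cells (limma, adjusted p = 0.0028), and Ccnd1 was then also called in LGR5hi cells, at 1.30 ± 0.21 (limma, adjusted p = 0.00047). E2f1 differed by -0.53 ± 0.42 in LGR5hi and by -0.20 ± 0.40 in LGR5lo cells, with no call. Of 48 genes of G2 and mitosis, 45 fell in LGR5hi cells, with a median of -1.68, while 7.28% of all genes fell. In LGR5lo cells 25 fell, with a median of -0.87, while 3.02% of all genes fell. Without the 2 doubted arrays 47 fell and 1 rose in LGR5hi cells. In LGR5lo cells 30 then fell and 1 rose, with a median of -1.02.

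**Figure D4:**
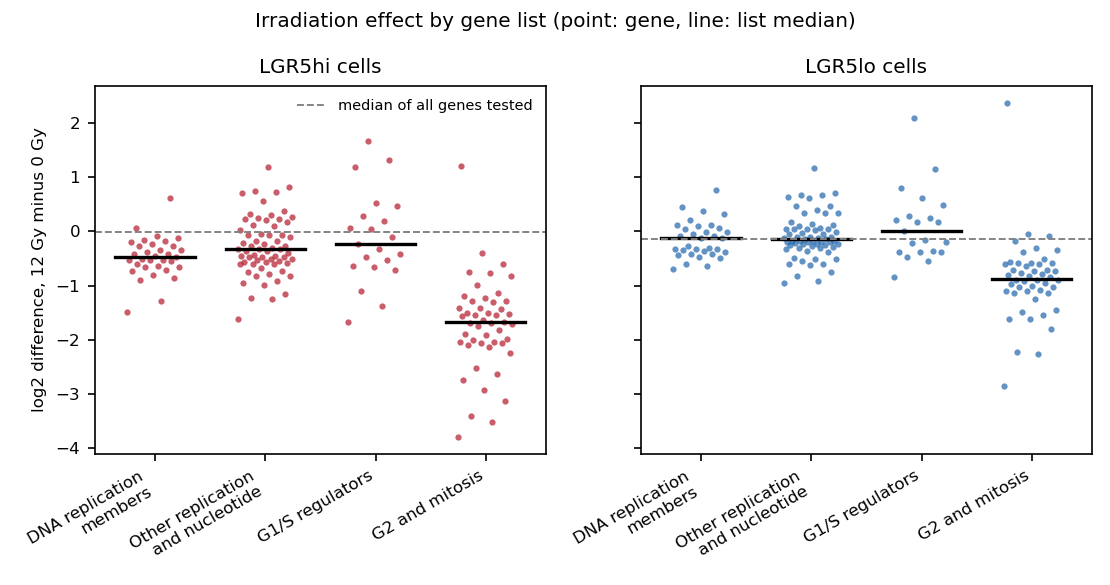
Each point is the log2 difference of a gene, 12 Gy minus 0 Gy, and black lines are list medians, with the median of all genes tested as a dashed line. In LGR5hi cells the list medians are -0.48 for the members, -0.33 for other replication genes, -0.24 for S phase regulators and -1.68 for G2 and mitosis.

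The members' promoters were read as windows of 250 bases before to 50 bases after the start (RefSeq, GRCm38.p6), which were found for 28 of 33 members. The E2F letters TTTCCCGC, TTTGGCGC, TTTCGCGC or TTTGCCGC, on either strand and counted with overlaps, occurred in 14 of 28 members (50%). They occurred in 13 of 56 other replication genes (23.2%), in 1 of 43 genes of G2 and mitosis (2.33%) and in 2.6% of 27025 genes with a window. The letters CCAAT, either strand, were in 60.7% of the members, 79.1% of the G2 and mitosis genes and 41.1% of all genes. The letters TTTGAA or TTCGAA were in 21.4%, 74.4% and 21.7% of the same sets. Among the members called after irradiation and with a window, Lig1, Pold1 and Mcm6 held E2F letters, and Tk1, Rfc4 and Rrm2 did not. Windows are shown for Mcm6, Tk1 and Rrm2, because Mcm6 and Rrm2 were the members called in LGR5lo cells and Tk1 fell most in LGR5hi cells. Capitals mark E2F letters or CCAAT, on either strand. The windows lie at chromosome 1, 128359656 to 128359955 on the minus strand (Mcm6), chromosome 11, 117825965 to 117826264 on the minus strand (Tk1), and chromosome 12, 24708004 to 24708303 on the plus strand (Rrm2).
Mcm6: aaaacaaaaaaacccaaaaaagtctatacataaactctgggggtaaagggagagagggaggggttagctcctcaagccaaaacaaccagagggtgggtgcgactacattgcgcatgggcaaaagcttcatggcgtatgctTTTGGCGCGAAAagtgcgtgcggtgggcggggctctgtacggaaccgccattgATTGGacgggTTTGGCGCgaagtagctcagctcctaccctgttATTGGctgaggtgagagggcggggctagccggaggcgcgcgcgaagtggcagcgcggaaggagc
Tk1: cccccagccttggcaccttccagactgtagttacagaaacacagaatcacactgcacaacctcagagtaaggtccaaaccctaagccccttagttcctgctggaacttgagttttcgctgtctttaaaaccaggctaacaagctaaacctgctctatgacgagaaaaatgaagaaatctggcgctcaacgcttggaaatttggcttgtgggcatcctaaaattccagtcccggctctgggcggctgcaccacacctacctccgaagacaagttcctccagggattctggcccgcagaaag
Rrm2: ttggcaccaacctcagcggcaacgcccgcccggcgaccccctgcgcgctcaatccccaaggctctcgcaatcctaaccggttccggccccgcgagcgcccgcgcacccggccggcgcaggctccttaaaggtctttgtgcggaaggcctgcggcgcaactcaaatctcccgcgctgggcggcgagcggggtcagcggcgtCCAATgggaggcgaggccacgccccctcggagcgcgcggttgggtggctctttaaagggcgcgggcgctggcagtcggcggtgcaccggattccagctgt
The Mcm6 window holds 3 matches to the E2F letters, of which 2 overlap, the Tk1 window none, and the Rrm2 window a single CCAAT. A match is a description of letters, not a site.

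The fourth comparison sets LGR5hi against LGR5lo cells without irradiation. Here 15 of 33 members were higher in LGR5hi cells and 0 lower, while 4.62% of all genes were higher and 4.93% lower. Differences were positive for 32 of 33 members and their median was 0.64, against -0.08 over all genes. The 15 were the MCM ring genes Mcm2, Mcm3, Mcm4, Mcm5 and Mcm6, the loaders Cdc6 and Cdt1, Mcm10, Gins1, Pola1, Pold1, Pole, Rfc4, Uhrf1 and Dnmt1. For 13 members the groups did not overlap, as for 5.7% of all genes. The count was less stable than the direction. It was 21 with arm and number as a random block and 4 with number as a fixed block within the arm, where 4.04% of all genes were higher. It was 1 (Pola1) without non-irradiated LGR5lo replicates 2 and 4, when 2.73% of all genes were higher. The median over the members was then 0.48, against -0.02 over all genes. Leaving out 1 LGR5hi array gave 3, 2 and 5 calls without non-irradiated replicates 1, 2 and 4. Leaving out 1 LGR5lo array gave 23, 8 and 2 without non-irradiated replicates 1, 4 and 5. The share of all genes called with the random block or with 1 array left out is not given here. Those counts of members therefore cannot be set against it.

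Pola1, the catalytic subunit of polymerase alpha, was 2.88, 2.65, 2.62 and 2.59 in non-irradiated LGR5hi cells, against 2.42, 1.31, 2.05, 1.70 and 1.35 in non-irradiated LGR5lo cells. It was 0.92 ± 0.20 higher in LGR5hi cells (limma, adjusted p = 0.0078). Mcm3 was 4.77, 4.99, 4.74 and 4.996 in LGR5hi cells, against 4.57, 4.05, 4.38, 4.06 and 3.88 in LGR5lo cells. It was 0.69 ± 0.16 higher in LGR5hi cells (limma, adjusted p = 0.011). Calls for Pola1 and Mcm3 were kept whichever single array was left out. With number as a fixed block within the arm, Pola1 kept its call (limma, adjusted p = 0.020) and Mcm3 lost it (limma, adjusted p = 0.059), and Mcm3 also lost it without the 2 doubted arrays (limma, adjusted p = 0.053). Rrm2 (-0.04 ± 0.22) and Slbp (0.10 ± 0.29) were the members that differed least between the populations.

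The fifth comparison sets LGR5hi against LGR5lo cells after irradiation, where 2 of 33 members were higher in LGR5hi cells and 0 lower, while 2.21% of all genes were higher and 4.09% lower. The median over the members was 0.34, against 0.05 over all genes, and 29 of 33 differences were positive. For 17 members the groups did not overlap, as for 11.1% of all genes. Mcm6 was 5.79, 6.10, 5.90 and 5.68 in irradiated LGR5hi cells, against 4.85, 5.04, 5.14 and 5.16 in irradiated LGR5lo cells. It was 0.82 ± 0.18 higher in LGR5hi cells (limma, adjusted p = 0.011).

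Mcm2 was 3.22, 3.12, 3.58 and 3.27 in irradiated LGR5hi cells, against 2.37, 2.24, 2.85 and 2.68 in irradiated LGR5lo cells. It was 0.76 ± 0.19 higher in LGR5hi cells (limma, adjusted p = 0.021). With arm and number as a random block 6 members were higher in LGR5hi cells, where 2893 of all genes were called in either direction. Without the 2 doubted LGR5lo arrays 6 members were higher, while 4.75% of all genes were. The count of members was 1 without irradiated LGR5hi replicate 3 or irradiated LGR5lo replicate 1 or 2. It was 5 without non-irradiated LGR5lo replicate 1 and 4 without its replicate 2. The share of all genes called in these fits with 1 array left out is not given here. The 4 members with negative differences were Tk1 (-0.36 ± 0.26), Rrm2 (-0.18 ± 0.23), Gmnn (-0.03 ± 0.20) and Rfc5 (-0.01 ± 0.56), none of them called.

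**Figure D5:**
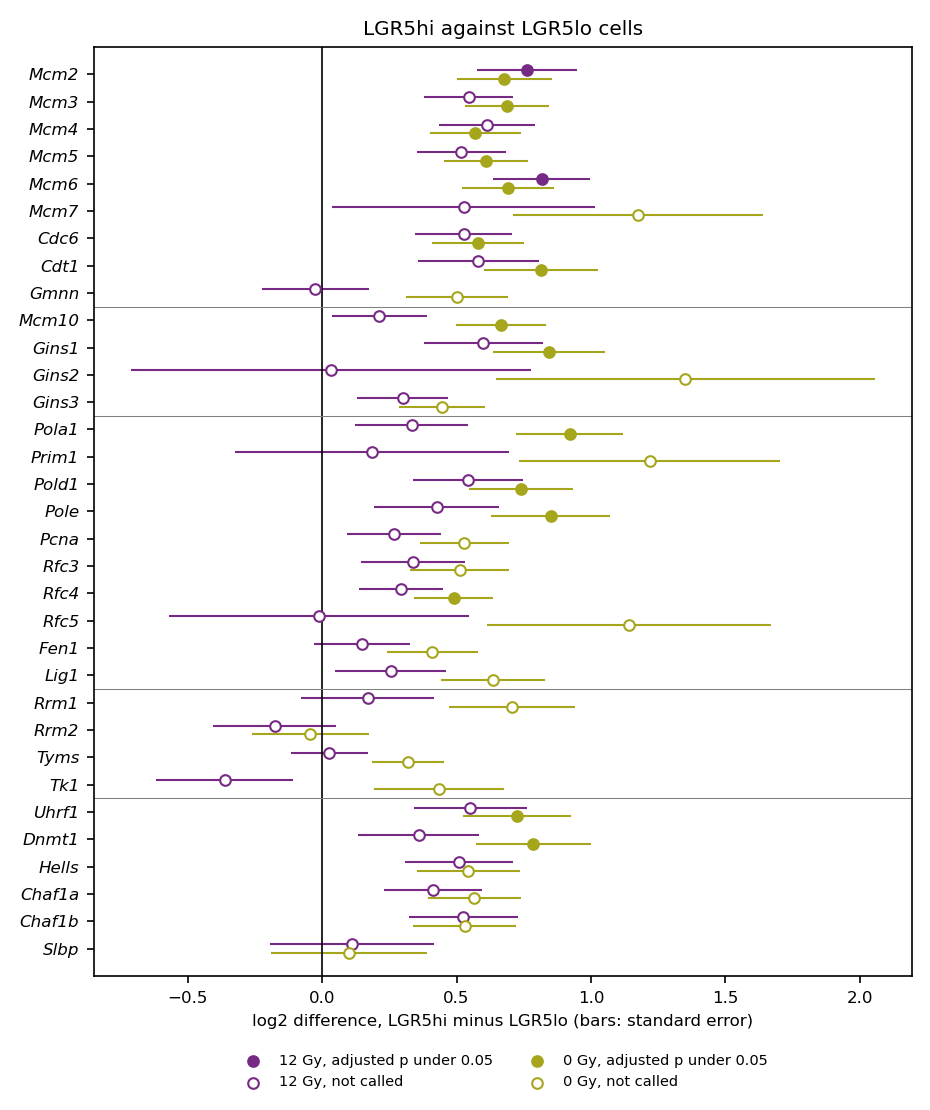
Each point is the log2 difference, LGR5hi minus LGR5lo, of one member after 12 Gy (purple) or without irradiation (olive), with its standard error as a bar, and filled points have an adjusted p under 0.05. Without irradiation 32 of 33 points lie right of 0, and after irradiation 29 do.

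Markers of some other cell types moved with the sort. Of all genes 4.62% were higher and 4.93% lower in LGR5hi cells without irradiation, and 2.21% and 4.09% after it. All 13 stem cell markers were higher in LGR5hi cells in both arms, and 6 of 6 tuft markers were lower without irradiation and 4 after it. Of 9 enterocyte markers 0 were called without irradiation and 1, lower, after it. Of 6 Paneth markers 1 was lower without irradiation and 0 after it. Of 9 leukocyte markers 1 was higher and 1 lower without irradiation and 0 were called after it. Of 9 epithelial markers 0 were called in either arm. All 10 enteroendocrine markers were lower in LGR5hi than in LGR5lo cells in both arms, and their summed linear level was 30.7 to 42.6 in irradiated LGR5hi and 602.2 to 996.6 in irradiated LGR5lo cells. Without irradiation it was 29.1 to 71.9 in LGR5hi and 495.7 to 678 in LGR5lo cells. Of 6 goblet markers 5 were lower in LGR5hi cells in both arms, with sums of 559.9 to 599.1 against 2128 to 2945 after irradiation and 498.7 to 784.7 against 1429 to 3502 without it. The part of other cell types in the members' differences between LGR5hi and LGR5lo was not tested.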

How the data were processed

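RNA of 17 samples in 4 groups was hybridised to Agilent arrays. The deposited scanner files give linear intensity for each spot in the Cy3 channel, background-subtracted by Agilent Feature Extraction 10.7.3.1 per the submitters' processing notes and the file headers, and not normalized between arrays. The deposited series table holds log2 values. Judging from these values, they were scaled to the array's 75th percentile and then centred on the median of each probe. One scanner file, that of non-irradiated LGR5hi replicate 1, is garbled as held here, so that array was rebuilt from the table. The same rebuilding met a tolerance of 0.02 log2 for 100% of probes on the 16 whole files. The rebuilt array carries no spot flags, so presence above background is out of 16 arrays.

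Outlier-flagged spots were dropped, replicate spots averaged, and each array's log2 signals reduced by the 75th percentile of its non-control probes. Of 55681 probes, 41444 exceeded background clearly on 4 or more arrays. The brightest of these for each gene name was tested, 27771 names in all, after names had been updated through RefSeq accessions. Group means over all 17 arrays were fitted with limma 3.58.1 in R 4.3.3 (lmFit and eBayes), adjusted by Benjamini-Hochberg over all genes at 0.05, and the script was tested on simulated data. Errors beside differences are standard errors of the fit, and the number of arrays limits the precision. Python 3.11.15, numpy 2.4.6, pandas 2.3.3 and matplotlib 3.10.9 were used otherwise.

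The members, other lists and comparisons were chosen with earlier results of these data known. All members are named, and of the other replication genes and S phase regulators those called with the smallest p, plus Rrm2b, Orc1, Cdc45, Dut and E2f1; a further gene under this rule is not reported here. Within an arm, LGR5hi and LGR5lo arrays of the same number share a sex and deviated from their group means together (correlations of 0.17 to 0.46 with irradiation and 0.12 to 0.35 without), so number can pair them. The p-values printed come from the fit without a block unless a block is named, and number within the arm is a random or a fixed block in alternatives. Irradiated and non-irradiated arrays of one number differ in sex, and a block over all groups was also run. Slide 1 held replicates 1 and 2, slide 2 held replicates 3 and 4, and slide 3 held only the fifth LGR5lo replicate without irradiation. Slide is a block in one alternative, and slides 1 and 2 were also fitted alone. Probe positions are mm9 per the files, and promoter windows are RefSeq GRCm38.p6.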

Additional observations from a re-analysis of the deposited data

Results flagged for a closer look

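Values of the members, and the median over them, were screened for a single array far from the rest of its group, by Dixon's test at the 95% level. There were 136 sets, each of a gene or of that median in a group. The test marked 9 values, and chance alone marks about 1 in 20 sets. Of these, 4 lay on non-irradiated LGR5lo replicate 4. Mcm7 was 2.06 there against 4.38 to 5.23 on the other arrays of the group, Gins2 was -3.18 against 0.74 to 1.59, Prim1 was 0.95 against 3.37 to 4.22, and Rfc5 was 0.72 against 3.42 to 4.31. On that array 12.8% of all genes lay over 1 log2 below the rest of the group. This share was not particular to it, being 12.5% on replicate 3 and 11.1% on replicate 1 of that group. On replicates 2 and 5 it was 2.83% and 3.74%. On replicate 2, 27.7% of all genes lay over 1 log2 above the rest. The cause of the 4 low values was not tested.

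On irradiated LGR5hi replicate 4, Gins2 was 0.24 against 0.54 to 0.59 and Uhrf1 was 4.10 against 4.15 to 4.16. Rrm2 was 4.31 on irradiated LGR5hi replicate 2, against 3.66 to 3.71 on the other arrays. Mcm4 was 4.75 on non-irradiated LGR5hi replicate 2, against 4.44 to 4.48. Tyms was -1.23 on non-irradiated LGR5lo replicate 2, against -0.77 to -0.63.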

How the results depend on the processing

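No called member changed sign in any alternative: of 842 pairs of a call and an alternative, 515 kept the call and 327 lost it. Counts of called members are given in the order irradiation in LGR5hi, irradiation in LGR5lo, LGR5hi against LGR5lo without irradiation and LGR5hi against LGR5lo after irradiation, where the main values were 6, 2, 15 and 2. Over all genes the main fit called 1717 higher and 2023 lower, 1242 and 838, 1282 and 1369, and 615 and 1136. Quantile normalization gave 7, 6, 8 and 5, median centring 0, 0, 0 and 0, and median centring without the 2 doubted arrays 5, 0, 0 and 0. Median centring called 1240, 990, 963 and 672 of all genes in the same order. Quantile normalization called 2209 of all genes for irradiation in LGR5lo, and 2368 and 1906 for LGR5hi against LGR5lo without and after irradiation. Normexp background correction on 16 arrays gave 4, 2, 3 and 0, and no filter on dim probes 4, 0, 11 and 2. Over all genes normexp correction called 991 and 1437 for LGR5hi against LGR5lo without and after irradiation. Fits of only the groups compared gave 15, 0, 0 and 11, slide 1 alone 0, 0, 0 and 0, and slide 2 alone 1, 0, 0 and 0. Calls over all genes moved as well. They were 4802, 788, 1156 and 3114 for only the groups compared, 265, 42, 105 and 319 on slide 1, and 1567, 461, 246 and 118 on slide 2. Slide as a block gave 10, 5, 10 and 4, replicate number over all groups as a block 10, 3, 8 and 3, and arm and number as a random block 5, 2, 21 and 6. For irradiation in LGR5hi slide as a block called 4235 of all genes, and replicate number over all groups 4352. Number as a fixed block within the arm gave 4 without and 2 after irradiation, with 2385 and 2325 of all genes called. Leaving out both doubted arrays gave 14, 3, 1 and 6, with 5665, 2230, 2021 and 3192 of all genes called. The difference of irradiation effects had 0 calls in every fit run.

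Leaving out 1 array gave 3 to 11, 0 to 2, 2 to 23 and 1 to 5 calls. Where no count over all genes is printed for a fit, its count of members cannot be set against a share of all genes. The medians over the members moved by more than the spread between arrays under median centring, to 0.41 for irradiation in LGR5lo, -0.78 for the difference of effects and 1.11 for LGR5hi against LGR5lo without irradiation, and on slide 1 alone, to -0.42 for irradiation in LGR5lo. Under median centring the median of all genes moved to 0.40 for irradiation in LGR5lo (0.12 without the doubted arrays), -0.49 for the difference of effects and 0.39 for LGR5hi against LGR5lo without irradiation. Calls over all genes split into 803 higher and 437 lower for irradiation in LGR5hi and 916 higher and 74 lower in LGR5lo, against 1717 and 2023, and 1242 and 838, in the main setting. Within slides 1 and 2 the medians were -0.51 and -0.43 for irradiation in LGR5hi, -0.42 and -0.16 in LGR5lo, 0.57 and 0.51 for LGR5hi against LGR5lo without irradiation and 0.44 and 0.29 after it. The cause of these shifts was not tested.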

Other observations

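The 33 members had 46 probes on the arrays, and 10 members had 13 probes besides the one tested. Of these further probes 12 had negative irradiation differences in LGR5hi and 11 in LGR5lo cells. Between LGR5hi and LGR5lo cells without irradiation 9 of the 13 further probes had positive differences, against 32 of 33 tested probes, and the 4 others were dimmer probes of Chaf1b, Pole, Rfc5 and Tk1. The further probes with positive irradiation differences were those of Rfc5 in LGR5hi cells (0.17) and, in LGR5lo cells, Mcm3 (0.03) and Rfc4 (0.57). A second Cdc6 probe gave -0.62 for irradiation in LGR5lo cells, where the tested one gave -0.13. Genes of the list of 20 p53 targets rose in 18 cases in LGR5hi and 18 in LGR5lo cells, while 6.18% and 4.47% of all genes rose.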
